A study of Mus musculus with 7 samples.

Results

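Chromatin accessibility was examined at 5 genes through which mature β cells carry out their work, Ucn3, Slc30a8, Entpd3, Trpm5 and Ero1b, in β cells with and without the chromatin remodelers CHD3 and CHD4. All regions of the ATAC-seq table that carry one of these gene symbols were taken, which gave 19 of 61288 regions and 5 of 24453 genes. Ucn3 had 3 regions, Slc30a8 7, Entpd3 2, Trpm5 3 and Ero1b 4. ATAC-seq reads open chromatin from the sites at which the Tn5 transposase can insert adapters, and its level is given in CPM, the reads of a region scaled by the library size to a common total.

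Nuclei came from Tomato-positive β cells sorted from islets of male mice. The 4 Control libraries were from Chd3+/+; Chd4+/+ mice and the 3 Chd3/4Δβ libraries from Chd3 fl/fl; Chd4 fl/fl mice. Both groups also carried MIP-CreERT, a tamoxifen-inducible Cre under the mouse Ins1 promoter that is known by itself to influence islet β-cell function, and the R26 LSL-tdTomato reporter. Both received tamoxifen by oral gavage from 4 weeks of age. Mice of these genotypes were 10 weeks old when tissue was examined, but neither the strain nor the age at which cells for ATAC-seq were collected is stated in the sources used here, and the labels do not say whether each library of a group is from its own animal, so that p-values cover library-to-library spread alone, which may be technical.

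The 5 genes belong to different arms of mature β-cell function. Urocortin 3, the peptide made from Ucn3, is released together with insulin and acts on δ cells through the receptor Crhr2, and it is a late marker of β-cell maturation in the mouse. Entpd3 encodes NTPDase3, an enzyme of the cell surface that breaks down extracellular nucleotides, and Trpm5 a calcium-activated cation channel. Slc30a8 encodes ZnT8, which loads zinc into insulin granules, and Ero1b an endoplasmic reticulum oxidase that supports disulfide bond formation in proinsulin. CHD3 and CHD4 are ATP-dependent helicases of the NuRD complex, which moves nucleosomes and removes acetyl groups from histones.

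Accessibility was lower in Chd3/4Δβ at most regions of these genes. The losses large enough to be called lay at Ucn3, Slc30a8 and Ero1b, and the gains were led by a region upstream of Entpd3. Trpm5 had 2 smaller losses, and 1 region each of Slc30a8 and Trpm5 was higher. A region was called when its adjusted p was under 0.05 and its log2 fold change (Chd3/4Δβ over Control) was at least 1 in size. By this rule 7 of the 19 regions were lower and 2 higher in Chd3/4Δβ, against 20.4% lower and 37.0% higher among all listed regions, and 10 were not called. The count of 7 was 2 without Chd3/4Δβ replicate 1, 3 with Control replicate 4 as the sole Control, and 11 with RLE factors or DESeq2, and the count of 2 was 1 without Control replicate 4 and with TMM factors, RLE factors or DESeq2. Of the 19 log2 fold changes, 15 were below 0 and 4 above it, with a median of -0.78, whereas 46.4% of all listed regions were below 0 and their median was 0.56. The direction of change varies with the level of a region. Among the 19915 listed regions with a mean of at least 5 CPM, 8.29% were called lower and 18.7% higher, 54.4% were below 0 and the median was -0.31. Of the 15 regions of the 5 genes at that level, 6 were called lower and 1 higher, 13 were below 0 and the median was -0.78. The libraries of the groups did not overlap at 11 regions that were lower and 4 that were higher, against 38.8% and 49.3% of all listed regions. In bulk samples, fewer cells with an open region and a less open region in each cell cannot be told apart.

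The table itself sets a limit on what these counts can show. It lists the 61288 of 109675 tested regions that the authors had called different between the same libraries, so that a difference at a listed region was a condition for being seen at all. Listing also needed more than 1 CPM in at least 3 libraries. Of the 19 regions, 16 would have met this in either group alone, whereas Ucn3 at +10.0 kb and Slc30a8 at +39.5 kb met it through Control and Entpd3 at -7.0 kb needed the Chd3/4Δβ libraries. Regions that are not in the table were not analysed here. These include the RefSeq start sites of Slc30a8, Entpd3, Trpm5 and Ero1b, since the region at Ucn3 was the single member region that covered the start of its gene. Of the 19 regions, 12 were annotated as intronic and 4 as intergenic, and 7 lay outside the RefSeq gene. Regions are named below by the distance of their centre from the RefSeq start of the gene in the direction of transcription. Coordinates are read as GRCm38, which they fit, although the labels name GRCm39.

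Library sizes behind the CPM ran from 17.6 to 42.4 M in Control and from 17.8 to 44.0 M in Chd3/4Δβ, with 48.1% to 49.6% of them in listed regions. In the 19 regions this gave 11 to 2044 reads per library. Lane tags appear in some column headers. Control replicates 1 to 3 have the same tag, Chd3/4Δβ replicate 3 has another, and the remaining libraries have none. No tag is shared between the groups, so that the tag gives no comparison within it and a difference between lanes cannot be told apart from the other differences between these libraries. With Control replicate 4 as the sole Control, a choice made after seeing the data, 3 regions of the 5 genes were called lower and 2 higher. In that fit the lone library is assumed to vary like the Chd3/4Δβ libraries.

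**Figure D1:**
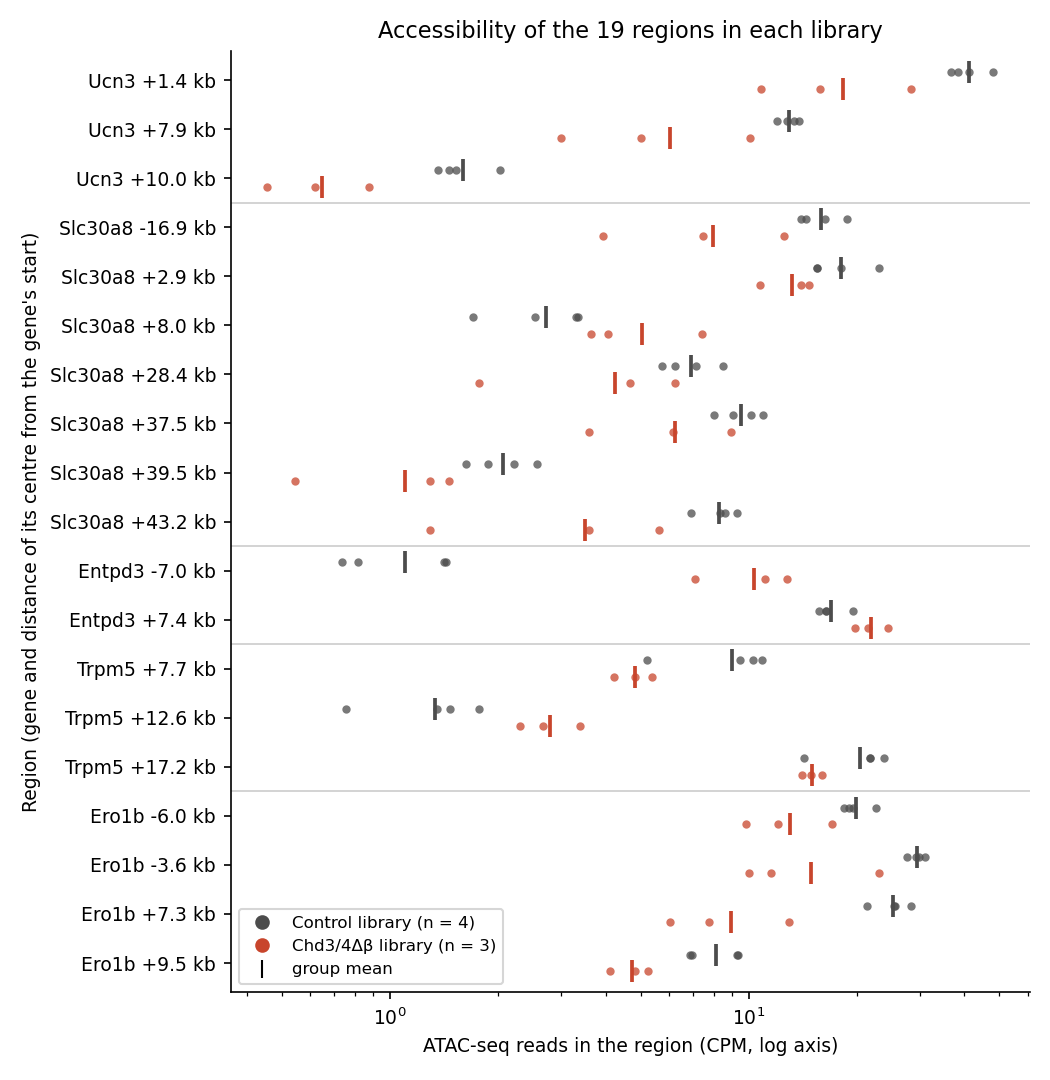
CPM of the 19 regions (log axis) in the 4 Control libraries (grey) and the 3 Chd3/4Δβ libraries (red), with vertical marks at the group means. All Chd3/4Δβ points lie left of all Control points at the 3 Ucn3 regions and the 4 Ero1b regions, and right of them at both Entpd3 regions.

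The promoter of Ucn3 is shown because it is the one start site of the 5 genes that lies in a listed region, and the region that holds it lost accessibility in all 3 Chd3/4Δβ libraries. The RefSeq sequence gives the 250 bases before the start, which are on the minus strand at chr13:3945350-3945599 of GRCm38.p6. Capitals mark TAAT on either strand (ATTA on the strand shown), the core that homeodomain factors such as Nkx6-1 and Pdx1 bind.
Ucn3 promoter: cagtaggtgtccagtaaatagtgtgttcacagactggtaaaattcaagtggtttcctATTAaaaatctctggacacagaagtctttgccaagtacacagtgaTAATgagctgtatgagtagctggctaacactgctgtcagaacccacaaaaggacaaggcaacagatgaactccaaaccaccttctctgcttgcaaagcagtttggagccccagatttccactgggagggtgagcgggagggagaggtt
It held 2 matches to TAAT, which begin 193 and 148 bases before the start. Of the 32851 RefSeq promoters cut to the same 250 bases, 54.9% held TAAT on either strand and 30.8% held it at least as often as Ucn3. CANNTG, the E-box of basic helix-loop-helix factors, was also found 2 times, and 66.2% of the promoters held it. AAGTG, the core of the NK2 family, was found once (40.7% of promoters), within the first of these E-boxes. No match was found to TGCTGA, the half-site of MAF factors, which 16.1% of promoters held. The table of promoters held 4 of the 5 genes. In the other 3, Trpm5 had 1 match to TAAT, Entpd3 had 1 match each to the E-box, the MAF half-site and the NK2 core, and Ero1b matched none of the 4 motifs.

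At Ucn3 all 3 listed regions were lower in Chd3/4Δβ. The main one, at +1.4 kb (chr13:3942299-3945687, 3389 bases), reaches from upstream of the start into the single intron and past the promoter printed above. It has 1 count per library for this whole span, so that the loss cannot be placed at the start or in the printed promoter. Its CPM was 36.8, 41.1, 38.3 and 48.2 in Control replicates 1 to 4 and 10.9, 15.8 and 28.4 in Chd3/4Δβ replicates 1 to 3. Both groups were thus well separated, with replicate 3 nearest to Control. The mean fell from 41.1 ± 5.05 (SD, n = 4) to 18.4 ± 9.05 CPM (SD, n = 3), a log2 fold change of -1.19 (SE 0.28, edgeR adjusted p = 0.0052).

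The region at +7.9 kb lies beyond the end of Ucn3, in sequence annotated as intergenic (chr13:3936850-3938004). It held 12.8, 13.3, 12 and 13.8 CPM in Control and 3.00, 5.00 and 10.1 CPM in Chd3/4Δβ, in replicate order. The Control libraries lay within a narrow range there, and the Chd3/4Δβ libraries spread in the same order as at +1.4 kb. Its log2 fold change was -1.16 (SE 0.29, edgeR adjusted p = 0.0032). The third region, at +10.0 kb, overlaps the RefSeq gene Tubal3, a tubulin gene, and is annotated as the end of a transcript. It was listed through its Control level alone. It was far weaker, at 1.36, 1.47, 1.53 and 2.03 CPM in Control and 0.45, 0.87 and 0.62 CPM in Chd3/4Δβ, with a log2 fold change of -1.32 (SE 0.33, edgeR adjusted p = 0.0019). Relative to the start-site region of the same library, neither distal region differed between the groups beyond the spread of the libraries. The mean log2 ratio of the +7.9 kb region to it was -1.66 in Control and -1.67 in Chd3/4Δβ, so the 2 regions fell by about the same factor. Without Chd3/4Δβ replicate 1 the regions at +1.4 and +7.9 kb had log2 fold changes of -0.91 and -0.82 and were not called. With Control replicate 4 as the sole Control the +7.9 kb region had an adjusted p of 0.074.

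Slc30a8, the granule zinc transporter gene, had regions that changed in different directions. The distal ones were lower and a weak one in the first intron was higher. Upstream, the intergenic region at -16.9 kb (chr15:52278276-52279032) held 18.8, 14.4, 16.4 and 14 CPM in Control and 3.93, 7.44 and 12.5 CPM in Chd3/4Δβ. All 3 Chd3/4Δβ libraries were below Control, though replicate 3 was close to it. This gave a log2 fold change of -1.03 (SE 0.28, edgeR adjusted p = 0.0067). Beyond the end of the gene, the intergenic region at +43.2 kb (chr15:52338068-52339370) went from 8.62, 6.89, 8.32 and 9.26 CPM to 1.29, 3.59 and 5.63 CPM. This was the largest loss among the Slc30a8 regions, at -1.31 (SE 0.34, edgeR adjusted p = 0.0045).

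The strongest Slc30a8 region lies in intron 1 at +2.9 kb (chr15:52297372-52299507) and changed less. Its CPM was 15.5, 15.5, 18.1 and 23.1 in Control and 10.8, 14 and 14.7 in Chd3/4Δβ, so that the groups were separated by a small gap. The log2 fold change of -0.47 (SE 0.17) was smaller in size than a call needs, so the region was not called. In the same intron, the region at +8.0 kb (chr15:52303342-52303851) was higher, with 1.70, 3.31, 3.35 and 2.54 CPM in Control and 3.63, 4.05 and 7.43 CPM in Chd3/4Δβ. Its log2 fold change was 0.85 (SE 0.27, not called). Relative to the +2.9 kb region of the same library, a ratio that no scaling between libraries can alter, the +8.0 kb region lay at log2 -3.19 to -2.23 in Control and -1.79 to -0.99 in Chd3/4Δβ. The region at +43.2 kb moved the other way on this scale, from -1.32 to -0.85 in Control to -3.06 to -1.39 in Chd3/4Δβ.

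In the later introns of Slc30a8 the values were lower on average without reaching a call. At +28.4 kb (intron 4) the mean was 6.90 ± 1.22 CPM in Control and 4.23 ± 2.27 in Chd3/4Δβ, and at +37.5 kb (intron 6) it was 9.55 ± 1.30 and 6.23 ± 2.68. The libraries of the groups overlapped at both. At +39.5 kb (intron 7) the groups did not overlap, at 2.07 ± 0.41 and 1.10 ± 0.49 CPM, and the log2 fold change was -0.96. This region was listed through its Control level, since 2 Chd3/4Δβ libraries exceeded 1 CPM there. Several Slc30a8 calls turned on single libraries. The region at -16.9 kb was not called without Control replicate 1 (-0.94), Chd3/4Δβ replicate 1 (-0.69) or Chd3/4Δβ replicate 2 (-0.99), and that at +43.2 kb was not called without Chd3/4Δβ replicate 1 (-0.88). Calls were gained at +8.0 kb without Chd3/4Δβ replicate 1 (1.05), at +28.4 kb without Chd3/4Δβ replicate 3 (-1.12), and at +39.5 kb without Control replicate 1 or 3 (-1.003 and -1.06) or Chd3/4Δβ replicate 2 or 3 (-1.29 and -1.08). RLE factors and DESeq2 also gave calls at +28.4 kb (-1.07 and -1.04), and these and TMM factors at +39.5 kb (-1.28, -1.27 and -1.17). With Control replicate 4 as the sole Control, the adjusted p rose to 0.21 at -16.9 kb and 0.066 at +43.2 kb.

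**Figure D2:**
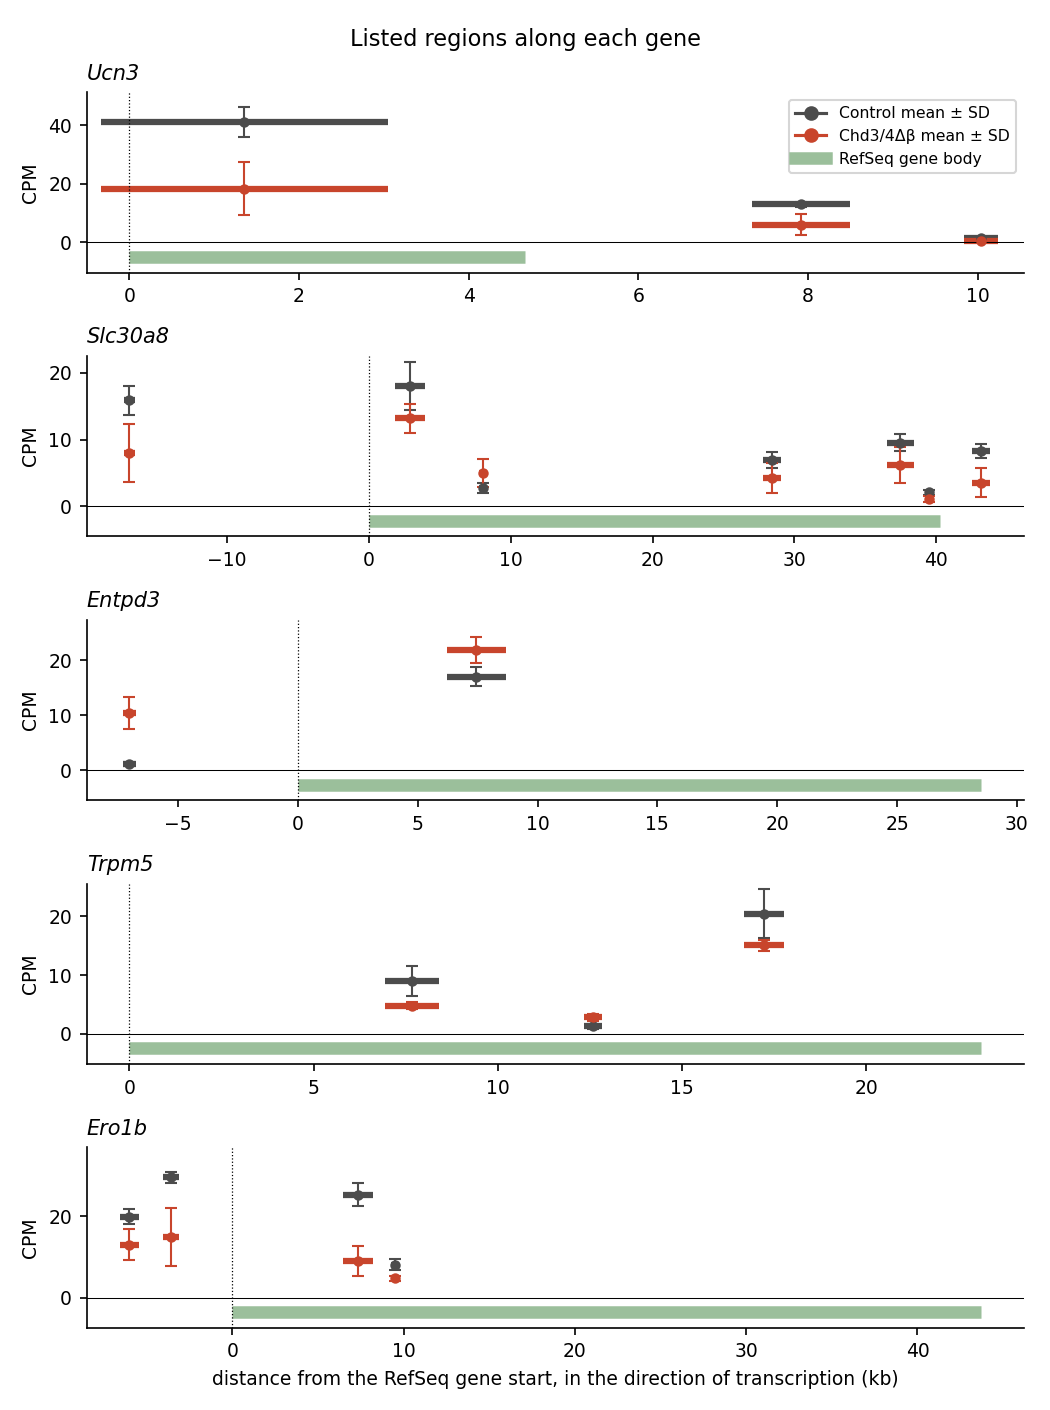
Mean CPM ± SD of each region in Control (grey, n = 4) and Chd3/4Δβ (red, n = 3) against its distance in kb from the RefSeq start, with horizontal lines for the width of the region and a green bar for the gene. At Ucn3 and Ero1b all regions are lower in Chd3/4Δβ, whereas the weak regions of Slc30a8 at +8.0 kb and Trpm5 at +12.6 kb and both regions of Entpd3 are higher.

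The largest change at the 5 genes was a gain at Entpd3, the ectonucleotidase gene. An intergenic region of 546 bases at -7.0 kb (chr9:120532512-120533057) was nearly closed in Control, at 0.74, 1.41, 0.81 and 1.44 CPM, and open in Chd3/4Δβ, at 12.8, 11.1 and 7.09 CPM. It would not have been listed from Control alone, where 2 of 4 libraries exceeded 1 CPM, so that a high level in Chd3/4Δβ was a condition for seeing it. These CPM rest on 13 to 61 reads in a Control library and 126 to 565 in a Chd3/4Δβ library. The mean rose from 1.10 ± 0.38 (SD, n = 4) to 10.3 ± 2.95 CPM (SD, n = 3), which is a log2 fold change of 3.20 (SE 0.26, edgeR adjusted p = 1.15e-09). It stayed between 2.86 and 3.40 in all alternative settings run.

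The strongest Entpd3 region lies in intron 3 at +7.4 kb (chr9:120546030-120548497) and differed little. It held 16.4, 16.4, 19.5 and 15.7 CPM in Control and 24.4, 21.5 and 19.8 CPM in Chd3/4Δβ, and the lowest Chd3/4Δβ library was just above the highest Control library. With a log2 fold change of 0.37 (SE 0.14) it was not called. This value was 0.16 with TMM factors and 0.06 with RLE factors or DESeq2, all estimated from the listed regions. Per library, the log2 ratio of the upstream region to the intronic one was -4.58 to -3.45 in Control and -1.48 to -0.93 in Chd3/4Δβ. Within 10 kb of Entpd3, 2 further listed regions were assigned to other genes, Rpl14 (log2 fold change -0.37) and 5830454E08Rik (-0.33), and neither was called.

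Trpm5, the cation channel gene, had 3 listed regions, all inside the gene, and they did not move together. The region at +7.7 kb (chr7:143086229-143087695) is annotated to exon 5 of 25. Its centre is annotated at 167 bases from a transcript start, so that this region of 1467 bases also spans such a start. Its CPM was 9.47, 10.3, 10.9 and 5.21 in Control and 5.38, 4.82 and 4.22 in Chd3/4Δβ. Control replicate 4 lay with the Chd3/4Δβ libraries, and the other Control libraries lay apart from them. The log2 fold change of -0.87 (SE 0.22) was not called, but it was called without Control replicate 4 (-1.08) and with TMM factors (-1.08), RLE factors (-1.19) or DESeq2 (-1.20). With Control replicate 4 as the sole Control it was -0.11.

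At +17.2 kb (chr7:143076868-143077966), in an intron, the strongest Trpm5 region showed the same arrangement. Control replicates 1 to 3 held 23.9, 21.8 and 21.8 CPM, Control replicate 4 held 14.3 CPM, and the Chd3/4Δβ libraries held 14.1, 14.9 and 16 CPM. The log2 fold change was -0.44 (SE 0.16, not called), and with Control replicate 4 as the sole Control it was 0.067. Between these regions, at +12.6 kb (chr7:143081803-143082315), lies the start of a shorter annotated transcript. This region was weak and was higher in Chd3/4Δβ, at 1.47, 1.36, 1.77 and 0.75 CPM in Control and 3.38, 2.67 and 2.31 CPM in Chd3/4Δβ. It had a log2 fold change of 1.11 (SE 0.30, edgeR adjusted p = 0.0033). It was not called without Control replicate 4 (0.87) or Chd3/4Δβ replicate 1 (0.95), nor with TMM factors (0.91), RLE factors (0.80) or DESeq2 (0.79). Its log2 ratio to the +17.2 kb region was -4.25 to -3.62 in Control and -2.80 to -2.05 in Chd3/4Δβ.

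Ero1b, the endoplasmic reticulum oxidase gene, was lower in Chd3/4Δβ at all 4 of its regions, and the libraries of the groups overlapped at none. The region at +7.3 kb in intron 1 (chr13:12572279-12574053) had the largest loss among the 19, from 25.5, 28.4, 25.6 and 21.4 CPM in Control to 6.04, 7.75 and 13 CPM in Chd3/4Δβ. The log2 fold change was -1.53 (SE 0.20, edgeR adjusted p = 2.03e-06), and it stayed between -1.87 and -1.28 in all alternative settings run. The strongest region, at -3.6 kb (chr13:12561794-12562699), held 27.7, 29.2, 29.8 and 31.1 CPM in Control and 11.6, 10.0 and 23.1 CPM in Chd3/4Δβ. Control libraries were close to each other there, and Chd3/4Δβ replicate 3 lay well above the other two. Its log2 fold change was -1.01 (SE 0.22, edgeR adjusted p = 0.0010). It was not called without Control replicate 4 (-0.98), Chd3/4Δβ replicate 1 (-0.86) or Chd3/4Δβ replicate 2 (-0.78), and had an adjusted p of 0.051 with Control replicate 4 as the sole Control.

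The remaining Ero1b regions fell short of a call, although that at +9.5 kb was called lower with RLE factors (-1.09) or DESeq2 (-1.10). At -6.0 kb the mean was 19.9 ± 1.87 CPM in Control and 13 ± 3.72 in Chd3/4Δβ (log2 fold change -0.63), and at +9.5 kb, in intron 2, it was 8.11 ± 1.39 and 4.72 ± 0.57 CPM (-0.78). Both upstream regions are annotated as introns of a transcript and overlap no RefSeq gene. Inside the RefSeq gene or within 10 kb of it, 11 more regions were listed, of which the annotation gave 6 to Gm25804 and 5 to no symbol. Of these 11, 9 were called lower and none higher, against 20.4% and 37.0% of all listed regions, with log2 fold changes of -1.89 to -0.83, and 8 of the 11 lay inside Ero1b. The strongest, at 13387 bases from the Ero1b start, went from 32.8 ± 1.79 (SD, n = 4) to 11.9 ± 6.37 CPM (SD, n = 3). These regions were looked up after the values of the 4 Ero1b regions had been seen. No such region was found near Ucn3 or Slc30a8, and near Trpm5 there was 1, assigned to Kcnq1 (-0.75, not called).

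**Figure D3:**
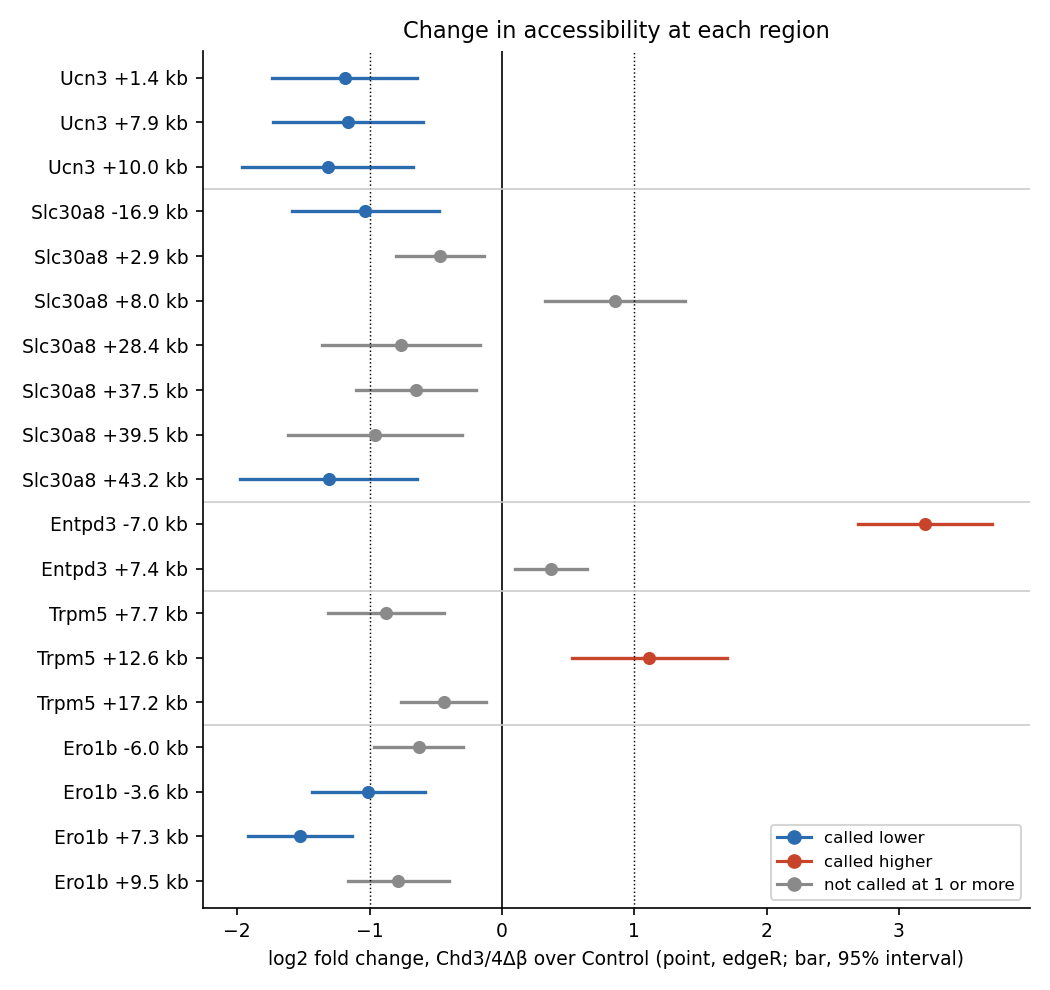
Log2 fold change of each region (Chd3/4Δβ over Control, edgeR) with its 95% interval, blue where called lower, red where called higher and grey where not called. The interval is a normal approximation from the SE, which takes no account of the small number of libraries. The dotted lines mark -1 and 1, and Entpd3 at -7.0 kb stands alone at 3.20 while the 7 regions called lower lie between -1.53 and -1.01.

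Between genes, levels were compared per kb of region, with the strongest region of each gene. Strongest means the highest mean CPM over all libraries, not the highest CPM per kb, and the orders hold for these regions only. In Control, Slc30a8 at -16.9 kb held more CPM per kb than the strongest regions of Slc30a8 and Trpm5. In Chd3/4Δβ, Entpd3 at -7.0 kb held 18.9 CPM per kb, more than the strongest region of Ero1b. In Control the order was Ero1b at 32.5 ± 1.54 CPM per kb, Trpm5 at 18.6 ± 3.82, Ucn3 at 12.1 ± 1.49, Slc30a8 at 8.45 ± 1.66 and Entpd3 at 6.88 ± 0.69 (SD, n = 4). The ranges of Trpm5 and Ucn3 overlapped, as did those of Slc30a8 and Entpd3, and the ranges of Ucn3 and Slc30a8 were separated by less than either SD. In Chd3/4Δβ the order was Ero1b at 16.5 ± 7.91 CPM per kb, Trpm5 at 13.7 ± 0.90, Entpd3 at 8.88 ± 0.95, Slc30a8 at 6.17 ± 0.99 and Ucn3 at 5.42 ± 2.67 (SD, n = 3). Ero1b and Trpm5 overlapped here. Among these strongest regions, that of Ucn3 was in the middle of the order in Control and last in Chd3/4Δβ. However, its range in Chd3/4Δβ, 3.20 to 8.38, included all of Slc30a8 and reached into that of Entpd3. An exact permutation test of log2(CPM + 0.5), two-sided over 35 assignments of the libraries, gave p = 0.0571 for the strongest regions of Ucn3, Slc30a8, Entpd3 and Ero1b, and p = 0.171 for Trpm5. With BH adjustment over the 5 exact tests these were 0.0714 and 0.171. The two-sided p was the smaller one-sided p doubled, and 0.0571 is the smallest value that this form can take with 3 libraries against 4.

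The Chd3/4Δβ libraries differed among themselves at these genes. Where the fold change was below 0, replicate 3 was the highest of the 3 in 12 of 15 regions and replicate 1 the lowest in 13 of 15, against 56.5% and 46.7% of all listed regions below 0. Over the 15 regions the median log2 ratio to the Control mean was -1.30 in replicate 1, -0.69 in replicate 2 and -0.35 in replicate 3. Over all 12512 regions called lower it was -1.27, -1.14 and -0.87. The coefficient of variation across the Chd3/4Δβ libraries had a median of 43.0% over the 15 regions and 22.1% over all listed regions below 0, whereas in Control it was 13.9% and 15.3%. Exceptions to this order were Trpm5 at +7.7 kb, where replicate 3 was lowest, and Ero1b at -3.6 kb, where replicate 2 was lowest. The weak regions of Ucn3 at +10.0 kb and Slc30a8 at +39.5 kb, where replicate 2 was highest, were exceptions as well. Replicate 3 was also the shallowest of the 3 libraries, and the only one of them with a lane tag in its column header, and the part of depth or lane in this order was not tested.

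The genes whose strongest region followed each member most closely were sought among 12805 genes with a mean of at least 5 CPM, by Pearson's r of log2 CPM over the 7 libraries. For Ucn3 these were A830018L16Rik (r = 0.998), Gm36971 (0.996) and Hpgds (0.995). Slc30a8 was followed by Neto1 (0.987), Zfp184 (0.987) and Zfp704 (0.982), and Entpd3 by Gm15900 (0.996), Gm38358 (0.990) and the potassium channel gene Kcnk2 (0.986). Trpm5 was followed by Mir7019 (0.995), Rnf19a (0.984) and Rbsn (0.983). For Ero1b they were Gm31747 (0.999), Derl1 (0.998), whose product takes part in removing misfolded proteins from the endoplasmic reticulum, and BC065397 (0.998). The points share 7 libraries and their scaling, and a likeness picked from so many genes has no p. Likeness in pattern was not likeness in size, since Derl1 had a log2 fold change of -0.30.

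Other genes of the same families and pathways are given beside the shares over all listed regions, of which 37.0% were called higher and 20.4% lower, with a median of 0.56. The extremes named are the largest log2 fold changes among the called regions of a list, with mean CPM in Control and then in Chd3/4Δβ. Several were close to 0 CPM in 1 group, so that a higher level in the other group was a condition for listing them. All 8 regions of the urocortin and CRH family (4 of 6 genes listed) were higher on average in Chd3/4Δβ, 6 were called higher (75%) and none lower, and the median log2 fold change was 1.61, opposite in sign to Ucn3 itself. The largest gain was in an intron of Crhr1, a CRH receptor gene, from 0.81 ± 0.42 to 12.5 ± 4.25 CPM (log2 fold change 4.05). Among 24 regions of other zinc transport genes 6 were called higher (25%) and 3 lower (12.5%), with a median of -0.41, and with RLE factors or DESeq2 the counts turned to 3 higher and 8 lower, while 5 were lower without Control replicate 4. Slc30a9 had the largest gain (2.51, 0.40 to 2.24 CPM) and Slc39a2, a zinc importer gene, the largest loss (-1.26, 7.16 to 3.09 CPM).

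Among 56 regions of ectonucleotidases and purinergic receptors 18 were called higher (32.1%) and 11 lower (19.6%), close to the shares of all listed regions, though the median was -0.38. With RLE factors they were 14 higher and 23 lower. The extremes were the adenosine receptor genes Adora1 (4.25, 0.13 to 2.53 CPM) and Adora2b (-2.74, 1.00 to 0.16 CPM). Of 60 regions of other TRP channels 25 were called higher (41.7%) and 15 lower (25%) with a median of 0.51, which is also near the values of all listed regions. They ran from Trpm3 (4.62, 0.13 to 3.72 CPM) to Trpm1 (-2.56, 1.76 to 0.29 CPM). In the list of endoplasmic reticulum folding genes, 13 of 64 regions were called higher (20.3%) and 15 lower (23.4%), with a median of -0.42, and with RLE factors 9 higher and 26 lower. Both extremes encode sensors of unfolded proteins, Eif2ak3 (2.72, 1.10 to 7.23 CPM) and Ern1 (-2.47, 7.73 to 1.41 CPM).

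Other mature β-cell genes had 39 of 171 regions called higher (22.8%) and 29 lower (17%), with a median of -0.55. Of these regions 65.5% were below 0, against 46.4% of all listed regions and 54.4% of those with a mean of at least 5 CPM. The list was also stronger, with a median level of 4.58 CPM against 2.94 CPM over all listed regions. The balance of calls turned to 29 higher and 59 lower with TMM factors and to 27 higher and 70 lower with RLE factors, and the count lower was 51 without Chd3/4Δβ replicate 3 and 11 with Control replicate 4 as the sole Control. The largest gain was at Esrrg, a nuclear receptor gene of β-cell maturation (4.53, 0.14 to 2.74 CPM), in an intergenic region annotated at -77104 bases. The largest loss was in a region far upstream of Ins1 (-2.33, 2.49 to 0.57 CPM). Immature or disallowed genes, which mature β cells keep low, had 22 of 42 regions called higher (52.4%) and 5 lower (11.9%), with a median of 1.02. They ran from Yap1 (4.14, 0.14 to 2.82 CPM) to Igfbp4 (-3.09, 2.18 to 0.30 CPM). Their count of 22 was 14 with TMM factors and 11 with RLE factors or DESeq2. With RLE factors 158 regions of the 7 lists were called lower in place of 78, and 91 higher in place of 129.

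The sorted cells had open chromatin at β-cell genes in both groups. The strongest regions of 7 β-cell markers (Ins1, Ins2, Iapp, Nkx6-1, Pdx1, Mafa and Slc2a2) had means of 38.4 to 192.0 CPM in Control and 19.6 to 104.7 CPM in Chd3/4Δβ. Each of the 7 had a lower mean in Chd3/4Δβ than in Control. Among all listed regions with a mean of at least 5 CPM, the median log2 fold change was also below 0, at -0.31. Markers of other cell types were summed over all their listed regions, a measure that cannot be set against single strongest regions. Listed regions of other cell types' markers were higher in Chd3/4Δβ for most lists. Their summed CPM was 92.7 to 95.9 in Control and 135 to 181 in Chd3/4Δβ for endothelial markers (10 of 12 genes listed), 26.6 to 33.8 and 41.1 to 52.4 for immune markers (5 of 12), and 24.6 to 29.1 and 32.8 to 42.1 for acinar markers (6 of 14). For δ-cell markers (4 of 6) it was 46.2 to 49.2 and 93.7 to 96.1, and for α-cell markers (10 of 10) the groups overlapped at 283 to 304 and 242 to 326. None of these regions was at 0 throughout, since each listed region had more than 1 CPM in at least 3 libraries. The share of regions called higher was 38.1% for endothelial, 42.9% for immune, 60% for acinar, 61.5% for δ-cell and 42.9% for α-cell markers. These shares rest on 21, 7, 10, 13 and 35 regions. Among all listed regions 37.0% were called higher, to which the endothelial share was close, and the median log2 fold change was 0.56. The part of other cells in the changes at the 5 genes was not tested.

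**Figure D4:**
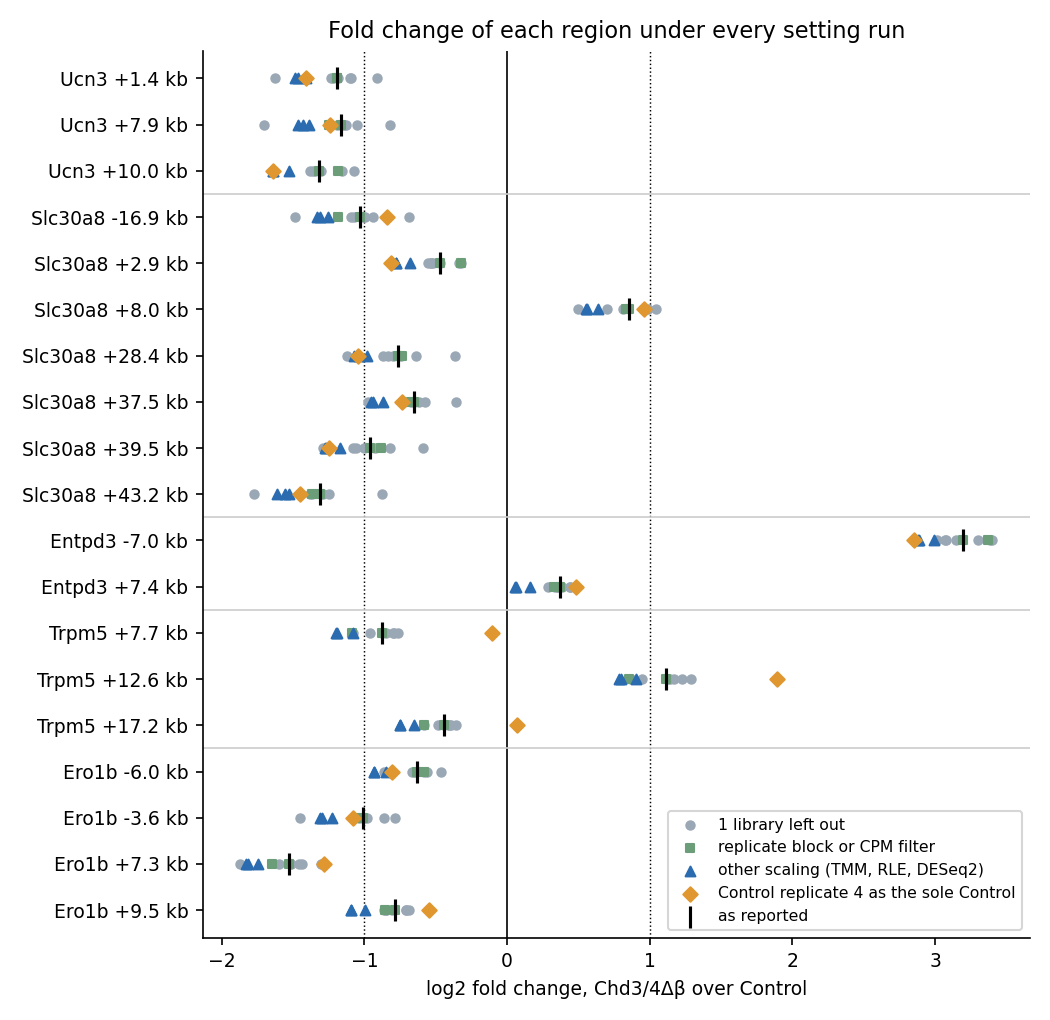
Log2 fold change of each region as reported (black mark) and under every alternative run, with 1 library left out (grey circles), another scaling (blue triangles), a replicate block or CPM filter (green squares), and Control replicate 4 as the sole Control (orange diamonds). Entpd3 at -7.0 kb stays between 2.86 and 3.40, whereas Trpm5 at +17.2 kb reaches 0.067 with Control replicate 4 alone.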

How the data were processed

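ATAC-seq libraries of sorted β cells were analysed as 4 Control and 3 Chd3/4Δβ samples, grouped by the genotype in the labels. The authors deposited 1 table of regions with whole-number read counts per library and the CPM of each library, along with their own fold changes, scores, p-value and FDR columns. These comparison columns were not reported, and the p-value and FDR columns served only to recover the number of regions tested (109675). No aligner, peak caller or counting tool is named in the sources used here. The labels name GRCm39, but 69.4% of 5839 promoter regions lay within 2000 bases of a RefSeq GRCm38.p6 gene end, against 3.15% for the nearest-gene columns of the table, and coordinates were read as GRCm38 without conversion. In all, 4.38% of regions name no gene.

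Counts were fitted with edgeR 4.0.16 (R 4.3.3; robust quasi-likelihood F-test) over all 61288 regions, with library sizes taken from the CPM and BH adjustment over 109675 regions. SE is the log2 fold change divided by the root of F. The fit was tested on simulated data. Alternatives were TMM and RLE factors, DESeq2 1.42.0, a mean of at least 1 CPM, a replicate block and leaving out each library. The members, lists and named genes (all member regions, the 3 most alike genes and the extremes of each list) were chosen with earlier results of these data known.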

Additional observations from a re-analysis of the deposited data

How the results depend on the processing

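No region of the 5 genes changed direction with TMM factors, RLE factors, DESeq2, the CPM filter, the replicate block or any library left out. With Control replicate 4 as the sole Control, Trpm5 at +17.2 kb turned from -0.44 to 0.067, and 3 regions of the 5 genes in place of 7 were called lower. TMM factors, RLE factors, DESeq2 and the replicate block left 1 region called higher in place of 2 (Entpd3 at -7.0 kb), and RLE factors and DESeq2 called 11 lower. These scalings moved the median of all listed regions by -0.21 (TMM), -0.31 (RLE) and -0.31 (DESeq2). Counts over all listed regions went from 22692 higher and 12512 lower to 19374 and 17070 (TMM), 17972 and 19441 (RLE), 17936 and 19443 (DESeq2) and 19950 and 7772 (Control replicate 4 alone). Factors estimated from the table centre on regions that had been listed for a difference. In the 7 gene lists, 78 regions called lower became 136 (TMM), 158 (RLE), 155 (DESeq2) and 44 (Control replicate 4 alone). With 1 library left out, the 5 genes had 1 to 2 regions called higher and 2 to 9 lower, with 2 without Chd3/4Δβ replicate 1, and the lists 120 to 131 higher and 73 to 111 lower. Of 133 single values with a library left out, 115 kept their call, 11 lost it and 7 gained it.

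The replicate numbers did not pair the libraries, since deviations of libraries with the same number correlated at r = 0.08, -0.04 and -0.02, and Chd3/4Δβ replicates 2 and 3 correlated best with another number. With the replicate block, 1 region of the 5 genes was called higher and 8 lower, and over all listed regions 22783 and 12599. Under it Trpm5 at +12.6 kb lost its call (0.86) and Trpm5 at +7.7 kb gained one (-1.08). Control replicate 4 has no Chd3/4Δβ library of the same number, so that it forms its own block and does not enter the fold change. Without Control replicate 4 and without the block, the 2 values were 0.87 and -1.08. Low depth limits the weak regions, of which Ucn3 at +10.0 kb had 11 reads in Chd3/4Δβ replicate 3.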
